A study of Mus musculus with 36 samples.

Results

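Zinc transporters and metallothioneins were followed across mouse intestinal organoids as a set of 8 genes, namely Slc39a8, Slc39a5, Slc39a4, Slc39a14, Slc30a1, Slc30a10, Mt1 and Mt2. They were listed by symbol and matched to their Ensembl identifiers among 52636 genes in the count data, and all 8 had identifiers there. Slc39a8 was picked on its fall in both SCM and Wnt5a, so its levels are given below as a description without a test. The other 7 are further genes of the zinc transporter families and metallothioneins, and the whole list was chosen with earlier results of these data known. All 8 passed the expression filter of edgeR, which kept 15497 genes, and all had a mean over 0.5 CPM (counts scaled to library size, with TMM between libraries), although Slc30a10 lay close to that limit.

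The organoids were grown from jejunal crypts of 6 C57BL/6 mice, and the labels give no allele, age or sex. RNA was sequenced from 6 libraries of each of 6 conditions, 36 in all. Complete media + IgG was the reference, QCM + IgG and SCM + IgG were media conditioned by quiescent and by senescent mouse embryonic fibroblasts, and Wnt5a + IgG was complete media with this ligand of noncanonical Wnt signaling. SCM + anti-Ptk7 and Wnt5a + anti-Ptk7 held an antibody against the Wnt co-receptor Ptk7 in place of IgG; complete media or QCM with this antibody was not analysed here. Library totals lay between 9581589 and 21029769 counts. Replicates were numbered 1 to 6 in every condition. The design text names 6 source mice with origin IDs 1 to 6, but no label states that a number is a mouse. The main p-values take no account of shared numbers and measure the spread between these cultures. A model with the replicate number is given below as an alternative. Counts of replicate numbers that were higher or lower describe libraries that share a number, which is not known to be a shared mouse. These counts, and ranges that do not overlap, are descriptions, since their share over all genes was not counted.

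The libraries had the markers of epithelium, with a summed level of 7 epithelial markers between 5890 and 23200 CPM. The summed level of 8 fibroblast markers was between 0 and 7.36 CPM, with Col3a1, Dcn and Thy1 at 0 in 36 of 36 libraries. Libraries with the number 1 stood apart for the genes described here. Number 1 was the lowest of the 6 libraries in 6 of 6 conditions for Slc39a8, Slc39a5, Mt1 and Mt2, and the highest in 5 of 6 for Slc39a4.

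Cells move zinc with a pair of transporter families. Proteins of the ZIP family (Slc39a genes) carry zinc into the cytosol, and proteins of the ZnT family (Slc30a genes) carry it out of the cell or into organelles. Metallothioneins are small cysteine-rich proteins that bind zinc and copper in the cytosol, and zinc itself raises their transcription through the factor Mtf1, which binds metal response elements in DNA. In the small intestine ZIP4 takes up dietary zinc at the apical membrane of enterocytes, and metallothionein level is a classical marker of the zinc that a cell holds.

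Metallothioneins were by far the most abundant members. Per kb of coding sequence, Mt1 was at 13960 ± 1916 CPM per kb (SD, n = 6) in complete media and Mt2 at 6953 ± 1100. The length was the union over all annotated transcripts, 479 bases for Mt1 and 256 for Mt2. It may exceed the coding sequence of any 1 transcript, so the distance between Mt1 and Mt2 on this scale is uncertain. On the same scale Slc39a8 was at 122 ± 18.8, Slc39a5 at 97.7 ± 14.9, Slc39a14 at 64.3 ± 4.89, Slc39a4 at 50.3 ± 8.11, Slc30a1 at 24.4 ± 3.15 and Slc30a10 at 0.372 ± 0.400. The order of the ZIP genes depended on the length used, since per kb of all exons Slc39a5 was at 70.5, Slc39a4 at 32.1, Slc39a8 at 22.1 and Slc39a14 at 9.98. Levels below are in CPM without division by length and are compared between conditions only.

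**Figure D1:**
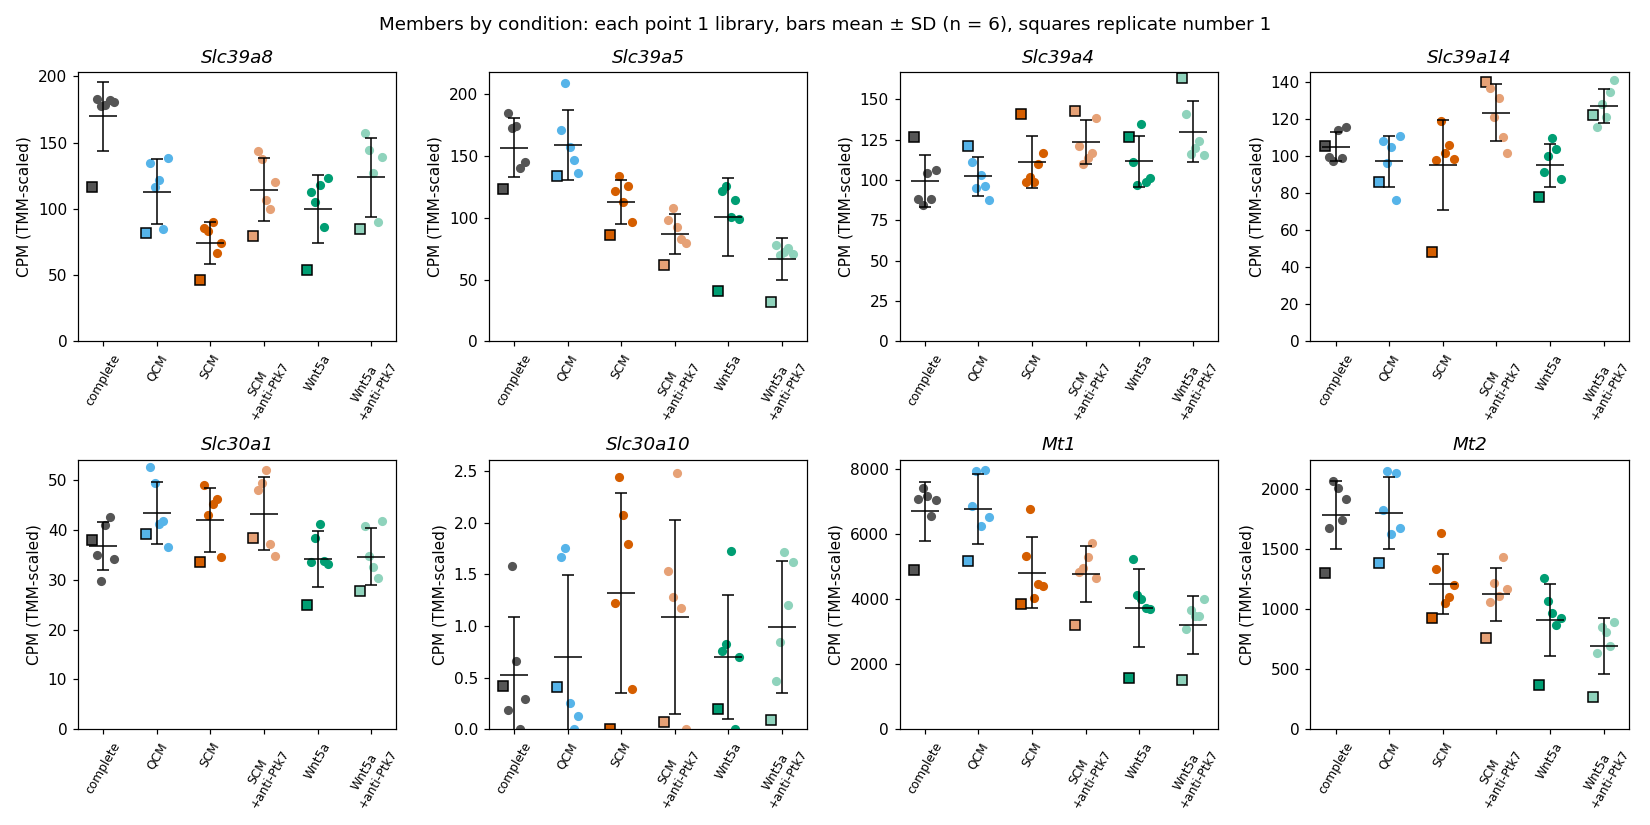
CPM (linear axis from 0) of the 8 members in the 6 conditions, with 1 point per library, a bar at the mean ± SD (n = 6) and squares for the libraries numbered 1. Slc39a8 was highest in complete media, Slc39a5, Mt1 and Mt2 had their lowest means in Wnt5a + anti-Ptk7, and Slc39a14 had its highest means with anti-Ptk7.

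Mt1 and Mt2 lie side by side on chromosome 8, and the stretch before each start is shown here because the genes moved together and because metal response elements are the known control of both. The 250 bases before the RefSeq start (GRCm38.p6, read 5′ to 3′ along the gene) are printed in lower case. Capitals mark the core of the element, searched as TGCACNC or TGCGCNC on both strands, in which matches may overlap. The windows of Slc39a5, which was also called in Wnt5a, and of the upstream start of Slc39a8 are printed for comparison.
Mt1, chr8:94178839-94179088, plus strand: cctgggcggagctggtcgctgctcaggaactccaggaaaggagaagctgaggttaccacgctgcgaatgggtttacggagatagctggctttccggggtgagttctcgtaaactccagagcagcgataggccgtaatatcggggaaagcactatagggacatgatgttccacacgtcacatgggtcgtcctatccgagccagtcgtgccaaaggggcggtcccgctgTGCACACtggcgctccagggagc
Mt2, chr8:94172368-94172617, plus strand: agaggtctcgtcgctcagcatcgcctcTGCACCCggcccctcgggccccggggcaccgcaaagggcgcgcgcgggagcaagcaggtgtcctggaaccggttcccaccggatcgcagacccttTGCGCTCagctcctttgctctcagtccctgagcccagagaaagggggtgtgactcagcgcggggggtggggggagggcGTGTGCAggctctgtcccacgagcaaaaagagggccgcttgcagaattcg
Slc39a5, chr10:128401225-128401474, minus strand: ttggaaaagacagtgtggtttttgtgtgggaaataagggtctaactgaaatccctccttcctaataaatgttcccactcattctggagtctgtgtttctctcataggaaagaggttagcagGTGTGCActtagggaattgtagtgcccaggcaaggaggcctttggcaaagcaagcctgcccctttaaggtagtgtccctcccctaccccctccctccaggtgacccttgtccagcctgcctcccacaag
Slc39a8, chr3:135825029-135825278, plus strand: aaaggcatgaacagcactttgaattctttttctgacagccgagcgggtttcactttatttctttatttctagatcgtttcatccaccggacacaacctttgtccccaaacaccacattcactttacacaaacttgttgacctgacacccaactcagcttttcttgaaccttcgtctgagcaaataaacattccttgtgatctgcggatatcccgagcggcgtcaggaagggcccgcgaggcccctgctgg
The Mt2 window holds 3 cores, the Mt1 and Slc39a5 windows 1 each and the Slc39a8 window 0. Of 32851 windows of the same length in the RefSeq table, 21.4% hold at least 1 core and 1.26% at least 3. GENCODE lists further Mt1 starts downstream of the RefSeq one. Before that at 94179211 the 250 bases from 94178961 to 94179210 hold 5 cores, which 0.0822% of the RefSeq windows reach. Starts beyond RefSeq were searched for Mt1 alone, so this share does not compare like with like. RefSeq windows were found for 6 of the 8 members, and those of Slc39a4 and Slc39a14 were not used here. Slc30a10 has 3 cores, of which 2 overlap on opposite strands, Slc30a1 has 1, the downstream start of Slc39a8 has 1 and the inner start of Slc39a5 has 0. A match is a sequence description and no evidence that a factor was bound.

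Both metallothioneins fell in Wnt5a. Mt2 (ENSMUSG00000031762, chromosome 8, 94172664 to 94173568, plus strand, protein coding) was between 1296 and 2067 CPM in complete media, with a median of 1823. In Wnt5a + IgG it was between 364 and 1254 CPM, with a median of 945, and no library of this condition reached the lowest of complete media. Its log2 fold change was −0.97 (SE, the standard error, 0.217, and adjusted p = 0.00122 by edgeR's quasi-likelihood test with Benjamini-Hochberg adjustment), and Mt2 was lower in 6 of 6 replicate numbers. Mt1 (ENSMUSG00000031765, chromosome 8, 94179082 to 94180327, plus strand, protein coding) was between 4897 and 7391 CPM in complete media (median 7052) and between 1563 and 5224 CPM in Wnt5a + IgG (median 3863). The ranges of Mt1 overlapped through the library of complete media numbered 1 and that of Wnt5a numbered 2. Its log2 fold change was −0.85 (SE 0.197, adjusted p = 0.00191, edgeR), again with lower values in 6 of 6 numbers. Without the libraries numbered 1 the log2 fold changes were −0.89 for Mt2 (adjusted p = 1.72e-06, edgeR) and −0.76 for Mt1 (adjusted p = 3.77e-06, edgeR). Markers of the epithelium moved beside them, with a summed level between 5890 and 7480 CPM in complete media and between 9470 and 17300 in Wnt5a, where 4 of the 7 were called higher and 0 lower, beside 8.29% of all genes called higher. The markers of Paneth cells went both ways. Their sum over 8 genes was between 3830 and 4480 CPM in complete media and between 2110 and 4000 in Wnt5a, and most of it was Itln1 (2425 ± 195 and 1885 ± 429 CPM, not called). Of the 7 tested, 2 were called higher in Wnt5a, Mmp7 (log2 fold change 0.89, adjusted p = 0.000128, edgeR) and Ang4 (0.85, adjusted p = 2.69e-05, edgeR), and 0 lower. The sum of 5 stem cell markers was between 1630 and 2230 CPM in complete media and between 928 and 2030 in Wnt5a, with Smoc2 its largest part and its 1 call (log2 fold change −0.67, adjusted p = 0.00371, edgeR). Olfm4 and Ascl2 of the same list had log2 fold changes of 0.38 and 0.41 without a call. The part of these cell types in the result was not tested. In these bulk samples, fewer cells of a type and less RNA per cell cannot be told apart.

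Together the 2 genes took 0.847% ± 0.118 (SD, n = 6) of the scaled counts in complete media, 0.857% ± 0.137 in QCM, 0.601% ± 0.133 in SCM and 0.463% ± 0.149 in Wnt5a. Under the antibody the share was 0.589% ± 0.107 in SCM and 0.389% ± 0.111 in Wnt5a. Among the 7 members other than Slc39a8, edgeR called Mt1, Mt2 and Slc39a5 in Wnt5a against complete media, all lower, where a call needed both a fold change over 1.5 and an adjusted p below 0.05. Over all genes tested, 10.2% were called in this comparison and 1.88% were called lower. The list was chosen with earlier results of these data known, and Mt1 and Mt2 moved together (r = 0.987 over the 36 libraries). The count beside these shares is thus a description. DESeq2 and voom with limma called the same number, 3 of the 7, while a test against a fold change of 1.5 (glmTreat) called 0.

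In SCM both metallothioneins had means between those of complete media and Wnt5a, without a call. Mt2 was between 928 and 1629 CPM in SCM + IgG (median 1147) and Mt1 between 3844 and 6770 CPM (median 4433). The log2 fold changes were −0.56 for Mt2 (SE 0.215, adjusted p = 0.0839, edgeR) and −0.48 for Mt1 (SE 0.196, adjusted p = 0.113, edgeR), and both genes were lower than complete media in 6 of 6 numbers. Of the 7 members, 0 were called in SCM by edgeR and by DESeq2, 3 had an unadjusted p under 0.05, and voom with limma called 1, Mt2. Over all genes tested 6.08% were called in SCM and 24.7% had an unadjusted p under 0.05. Without SCM + IgG replicate 3, in which both genes had their highest values of that condition, edgeR called Mt1 and Mt2, so that the count was 2. Without the libraries numbered 1 the log2 fold changes were −0.57 for Mt2 (adjusted p = 0.000949, edgeR) and −0.49 for Mt1 (adjusted p = 0.00154, edgeR), both under the fold cutoff. The median log2 fold change of the 7 members was −0.144 in SCM and −0.145 in Wnt5a, beside medians of 0.0068 and 0.0051 over all genes.

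In QCM the values of the metallothioneins overlapped those of complete media. Mt1 was between 5153 and 7953 CPM (median 6670) and Mt2 between 1380 and 2147 CPM (median 1746). Against complete media the log2 fold changes were 0.018 for Mt1 (SE 0.196, adjusted p = 0.987, edgeR) and 0.012 for Mt2 (SE 0.215, adjusted p = 0.993, edgeR). In QCM 0 of the 7 members were called by edgeR, DESeq2 and voom with limma, and 0 had an unadjusted p under 0.05, beside 0.374% of all genes called and 12% at such a p. When SCM was set against QCM, Mt2 had a log2 fold change of −0.58 (SE 0.215, adjusted p = 0.152, edgeR) and Mt1 one of −0.49 (SE 0.196, adjusted p = 0.179, edgeR). Both were lower in 6 of 6 numbers, and 0 of the 7 members were called there by the 3 methods, with 3 at an unadjusted p under 0.05, beside 17% of all genes at such a p and 0.903% called. Without the libraries numbered 1 these were −0.58 for Mt2 (adjusted p = 0.00433, edgeR) and −0.51 for Mt1 (adjusted p = 0.00549, edgeR), under the fold cutoff as well.

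The counts of Mt2 are uncertain in 1 respect. An antisense gene, Gm45774, shares 432 bases of exon with Mt2 on the other strand, and the library kit does not mark strand, so reads from the 2 genes cannot be told apart. Whether a read in the shared stretch was counted for both genes, for 1 or for neither is not given in the sources used here, and Gm45774 holds counts although it is annotated as antisense and the methods describe counting within coding sequences, so the levels of both genes depend on a rule that is not known. Gm45774 was listed at 1390 ± 200 CPM (SD, n = 6) in complete media, which was on average 78.0% of the Mt2 value, and at 660 ± 196 CPM in Wnt5a, or 73.9%. Its log2 fold change was −1.07 in Wnt5a (SE 0.204, adjusted p = 0.000231, edgeR) and −0.67 in SCM (SE 0.203, adjusted p = 0.0267, edgeR). Mt1 shares exon bases with no other annotated gene.

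**Figure D2:**
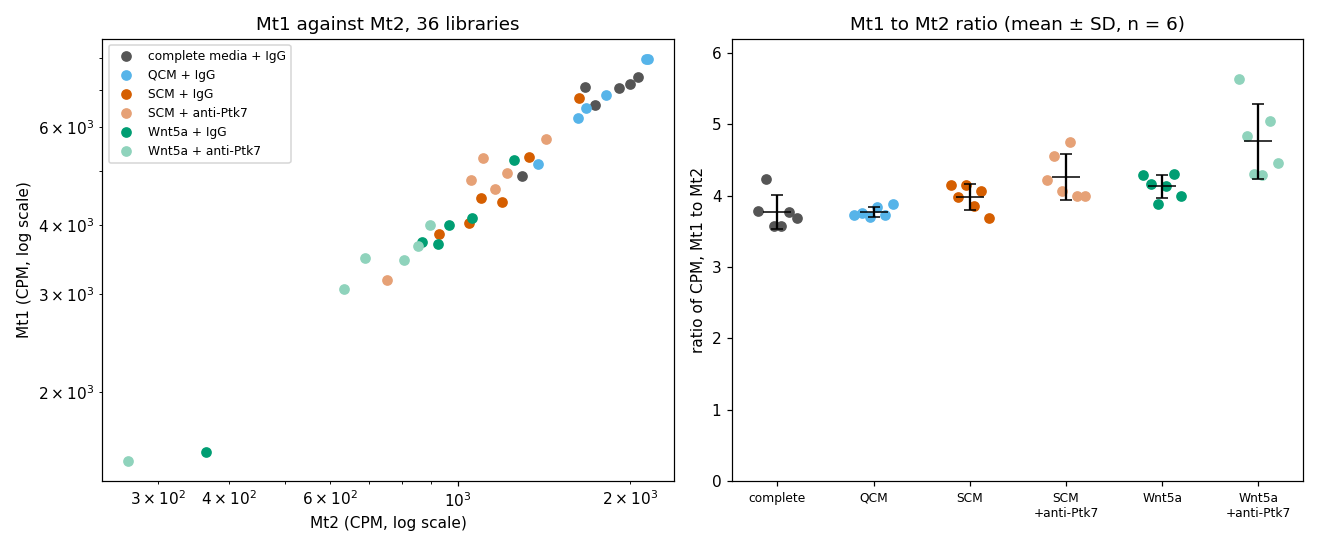
Left, Mt1 against Mt2 in CPM on log axes for the 36 libraries, coloured by condition. Right, the ratio of the 2 values in each library with the mean ± SD (n = 6), which was 3.77 ± 0.241 in complete media and 4.76 ± 0.528 in Wnt5a + anti-Ptk7.

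Mt1 and Mt2 did not move in strict proportion. The ratio of Mt1 to Mt2 was between 3.58 and 4.23 in complete media and between 3.70 and 3.88 in QCM. It was between 3.68 and 4.16 in SCM and between 3.99 and 4.75 in SCM + anti-Ptk7. In Wnt5a it was between 3.88 and 4.31, and in Wnt5a + anti-Ptk7 between 4.29 and 5.64, so that the lowest library of the last condition was above the highest of complete media. These are descriptions without a test, and the unknown counting of reads shared by Gm45774 and Mt2 bears on the ratio.

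Slc39a5 (ENSMUSG00000039878, chromosome 10, 128395931 to 128401229, minus strand, protein coding) encodes ZIP5, which sits on the basolateral side of intestinal and pancreatic epithelial cells. It was between 123 and 185 CPM in complete media (median 159) and between 40.5 and 126 CPM in Wnt5a + IgG (median 108). The ranges touched only at the lowest library of complete media and the highest of Wnt5a. The log2 fold change was −0.64 (SE 0.190, adjusted p = 0.0137, edgeR), and Slc39a5 was lower in 6 of 6 numbers. Its call rested on Wnt5a + IgG replicate 1, the library at 40.5 CPM, since without it the log2 fold change was −0.48 (adjusted p = 0.0376, edgeR), under the fold cutoff. Without all libraries numbered 1 it was −0.54 (adjusted p = 0.000394, edgeR), which is likewise under that cutoff.

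In QCM, Slc39a5 was between 134 and 209 CPM (median 152), with a log2 fold change of 0.021 against complete media (SE 0.189, adjusted p = 0.985, edgeR). In SCM + IgG it was between 86.5 and 134 CPM (median 117). No library of SCM reached the lowest of QCM, and the value was lower than complete media and lower than QCM in 6 of 6 numbers. Its log2 fold changes in SCM were −0.47 against complete media (SE 0.190, adjusted p = 0.102, edgeR) and −0.50 against QCM (SE 0.190, adjusted p = 0.164, edgeR), without a call in either. Without the libraries numbered 1 they were −0.46 (adjusted p = 0.00286, edgeR) and −0.48 (adjusted p = 0.00930, edgeR), under the fold cutoff.

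With anti-Ptk7 the Slc39a5 values were lower than with IgG in both media, without a call. They were between 61.7 and 108 CPM in SCM + anti-Ptk7 (median 87.6) and between 32.3 and 78.3 CPM in Wnt5a + anti-Ptk7 (median 71.5). In both media the antibody library was lower than the IgG library in 6 of 6 numbers. The log2 fold change was −0.37 in SCM (SE 0.191, adjusted p = 0.315, edgeR) and −0.60 in Wnt5a (SE 0.192, adjusted p = 0.0904, edgeR), and neither was a call. DESeq2 called Slc39a5 in Wnt5a (log2 fold change −0.59, adjusted p = 0.0405), and so did edgeR without the libraries numbered 1 (−0.62, adjusted p = 0.00146) and without Wnt5a + IgG replicate 1 alone. In SCM the value without the libraries numbered 1 was −0.37 (adjusted p = 0.0485, edgeR), under the fold cutoff. The difference between the antibody effects in Wnt5a and in SCM was −0.22 (SE 0.270, adjusted p = 0.999, edgeR).

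Markers of 3 epithelial cell types were called lower with the antibody, while some other genes of the same lists had higher values without a call. The calls are read beside 0.645% of all genes called lower in SCM and 0.432% in Wnt5a. Of 7 enteroendocrine markers (median log2 fold change −0.25 in SCM and −0.13 in Wnt5a), 3 were called lower in SCM and 2 in Wnt5a. These were the hormone genes Cck (log2 fold change −0.87 in SCM, adjusted p = 0.000120, and −0.83 in Wnt5a, adjusted p = 0.000155, edgeR), Gip (−1.06, adjusted p = 0.00368, and −0.83, adjusted p = 0.0201, edgeR) and, in SCM, Sct (−0.75, adjusted p = 0.00588, edgeR). Of 7 Paneth cell markers tested, 1 was called lower in each medium, Pnliprp2 in SCM (−0.99, adjusted p = 0.00284, edgeR) and the lysozyme gene Lyz1 in Wnt5a (−0.63, adjusted p = 0.00374, edgeR). The median log2 fold change of these 7 was −0.37 in SCM and −0.54 in Wnt5a. Of them, 5 in SCM and 6 in Wnt5a had an unadjusted p under 0.05 (edgeR), beside 17.1% and 15% of all genes. Those 5 included Ang4, which was higher. In SCM Lyz1 was at −0.54 (adjusted p = 0.0133, edgeR), under the fold cutoff. With the replicate number in the model, 3 of the 7 were called lower in Wnt5a, beside 0.8% of all genes. Of 10 enterocyte markers, 1 was called lower in both, the alkaline phosphatase gene Alpi (−0.59, adjusted p = 0.0403, and −0.72, adjusted p = 0.0104, edgeR). The other 9 enterocyte markers were not called, the median log2 fold change of the list was 0.039 in SCM and −0.13 in Wnt5a, and its mean sum went from 2690 to 2790 CPM in SCM and from 2230 to 2130 in Wnt5a. Higher values without a call included those of the enterocyte genes Fabp1 (log2 fold change 0.38 in SCM and 0.27 in Wnt5a), Slc15a1 (0.56 and 0.15) and Slc5a1 (0.31 and 0.15). They also included the Paneth cell gene Ang4 (0.30 and 0.39) and the enteroendocrine gene Neurog3 (0.40 and 0.28). Of the goblet and stem cell markers edgeR called 0, with 1 goblet marker in each medium and 1 stem cell marker in SCM at an unadjusted p under 0.05. The part of these cell types in the values of Slc39a5 and the other members was not tested.

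Neither metallothionein was called with the antibody. In SCM + anti-Ptk7, Mt1 was between 3185 and 5711 CPM (median 4891) and Mt2 between 755 and 1429 CPM (median 1137). The log2 fold changes against SCM + IgG were −0.012 for Mt1 (SE 0.196, adjusted p = 0.985, edgeR) and −0.10 for Mt2 (SE 0.215, adjusted p = 0.856, edgeR). In Wnt5a + anti-Ptk7, Mt1 was between 1505 and 3992 CPM (median 3474) and Mt2 between 267 and 895 CPM (median 749). Against Wnt5a + IgG these were log2 fold changes of −0.22 (SE 0.196, adjusted p = 0.672, edgeR) and −0.39 (SE 0.215, adjusted p = 0.406, edgeR), with Mt2 lower in 6 of 6 numbers and Mt1 in 5.

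Slc39a8 (ENSMUSG00000053897, chromosome 3, 135825279 to 135888572, plus strand, protein coding) encodes ZIP8, a plasma membrane importer of zinc and manganese. It was between 117 and 183 CPM in complete media (median 179.5), where 5 of the 6 libraries lay within 177 to 183 and the library numbered 1 at 117. In SCM + IgG it was between 46.2 and 89.9 CPM (median 78.6), below every library of complete media. In Wnt5a + IgG it was between 54.1 and 123 CPM (median 109), which overlapped complete media only at that library numbered 1. The log2 fold changes behind the choice of the gene were −1.19 in SCM (SE 0.186) and −0.76 in Wnt5a (SE 0.184).

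QCM had lower Slc39a8 values as well, between 81.5 and 138 CPM (median 119), a log2 fold change of −0.59 against complete media (SE 0.183). All 6 numbers were lower than complete media in QCM, in SCM and in Wnt5a, and all 6 were lower in SCM than in QCM, where the log2 fold change was −0.61 (SE 0.184). For Mt1, Mt2 and Slc39a5 the values in QCM were higher than complete media in 3 or 4 of the 6 numbers and lower in the rest. Whether Slc39a8 and these genes differ in QCM was not tested. The order of the means was complete media (170 ± 26.1 CPM), Wnt5a + anti-Ptk7 (124 ± 29.7), SCM + anti-Ptk7 (115 ± 24), QCM (113 ± 24.4), Wnt5a + IgG (99.9 ± 25.8) and SCM + IgG (74.2 ± 16.1). Only the gap below complete media was larger than the SD of both its neighbours.

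With anti-Ptk7 the Slc39a8 values went the other way from those of Slc39a5. They were between 79.6 and 143 CPM in SCM + anti-Ptk7 (median 113) and between 85.1 and 157 CPM in Wnt5a + anti-Ptk7 (median 133). The antibody library was higher than the IgG library of the same number in 6 of 6 numbers in both media. The ratios were between 1.18 and 1.72 in SCM and between 1.05 and 1.57 in Wnt5a. The log2 fold changes were 0.63 in SCM (SE 0.185) and 0.31 in Wnt5a (SE 0.183), and the means stayed below that of complete media. Since the gene was chosen on low values in SCM + IgG and Wnt5a + IgG, a higher value in any comparison with these libraries is no independent result.

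**Figure D3:**
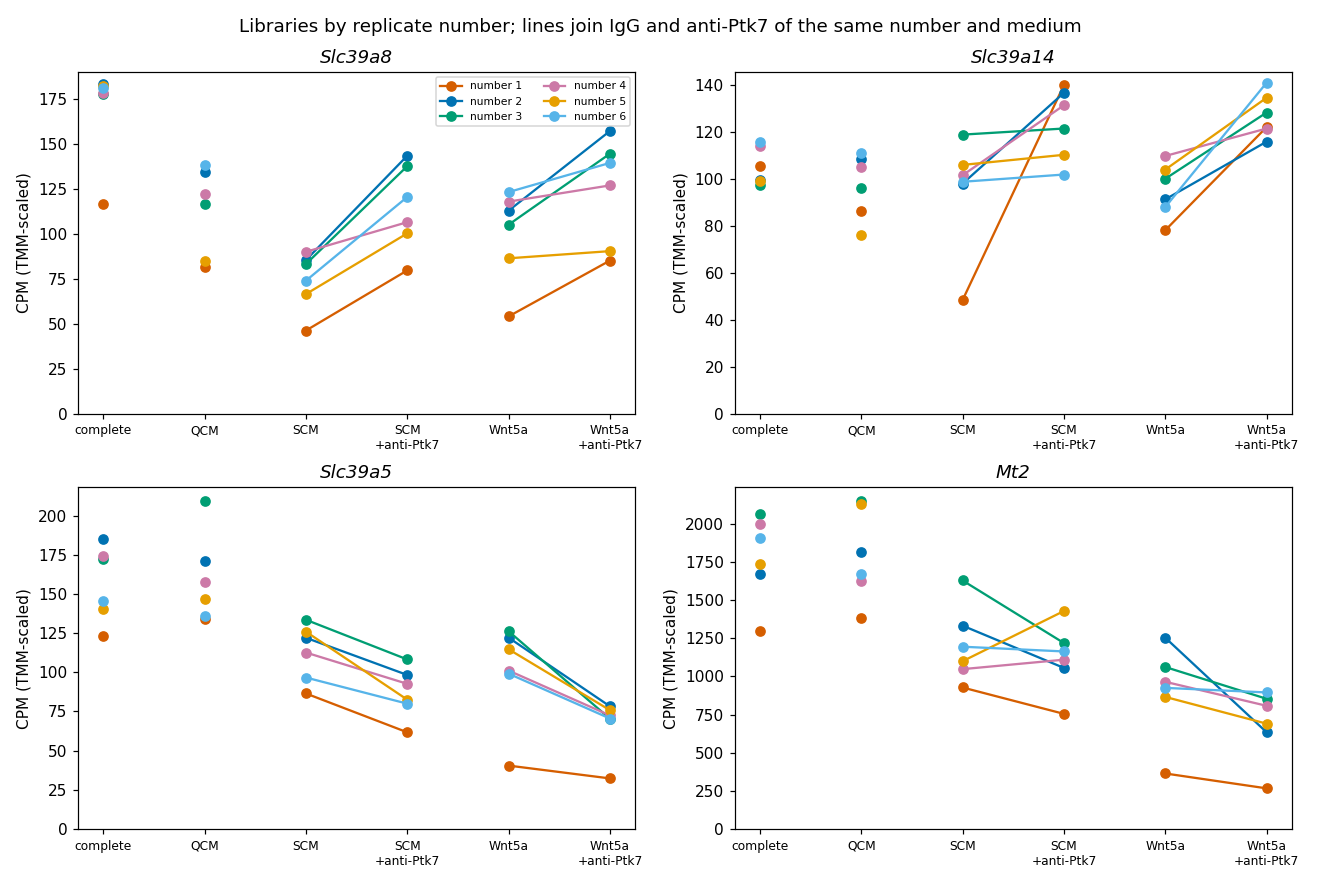
CPM (linear axis from 0) of Slc39a8, Slc39a14, Slc39a5 and Mt2 in each library, coloured by replicate number, with lines that join IgG and anti-Ptk7 of the same number in SCM and in Wnt5a. All 6 lines rise for Slc39a8 and Slc39a14 and all 6 fall for Slc39a5 in both media, while those of Mt2 go both ways in SCM.

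Slc39a14 (ENSMUSG00000022094, chromosome 14, 70303469 to 70351425, minus strand, protein coding) encodes ZIP14, an importer of zinc, manganese and iron that is the closest relative of ZIP8. In complete media it was between 97.5 and 116 CPM (median 103), in QCM between 76.3 and 111 (median 101), in SCM + IgG between 48.5 and 119 (median 100.2) and in Wnt5a + IgG between 78.2 and 109.8 (median 95.7). The log2 fold changes against complete media were between −0.14 and −0.11 in the 3 media (adjusted p between 0.468 and 0.789, edgeR). The library at 48.5 CPM was SCM + IgG replicate 1, and without the libraries numbered 1 the values were −0.0026 in SCM (adjusted p = 0.992, edgeR), −0.074 in QCM (adjusted p = 0.783, edgeR) and −0.094 in Wnt5a (adjusted p = 0.563, edgeR).

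Anti-Ptk7 gave higher Slc39a14 values in 6 of 6 numbers in both media. They were between 102 and 140.0 CPM in SCM + anti-Ptk7 (median 127) and between 116 and 141 CPM in Wnt5a + anti-Ptk7 (median 125). In Wnt5a the lowest antibody library was above the highest IgG library. The log2 fold change was 0.42 in Wnt5a (SE 0.128, adjusted p = 0.0692, edgeR) and 0.38 in SCM (SE 0.128, adjusted p = 0.107, edgeR), and both were below the fold cutoff too. Without the libraries numbered 1 it was 0.18 in SCM (adjusted p = 0.347, edgeR) and 0.38 in Wnt5a (adjusted p = 0.0283, edgeR). The effects in the 2 media differed by 0.041 (SE 0.180, adjusted p = 0.999, edgeR), or 0.19 without those libraries (adjusted p = 1.00, edgeR). Beside the marker calls given above, the summed fibroblast markers moved with these values, from a range of 0 to 2.70 CPM in SCM + IgG to 2.26 to 7.36 in SCM + anti-Ptk7, and from 0.211 to 3.09 in Wnt5a + IgG to 1.98 to 4.74 in Wnt5a + anti-Ptk7. Most of that sum was Pdgfrb, at 4.10 ± 1.48 CPM in SCM + anti-Ptk7, and its log2 fold change there was 1.88 (SE 0.614, adjusted p = 0.0927, edgeR). Col3a1, Dcn and Thy1 were at 0.

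Of the 7 members other than Slc39a8, edgeR called 0 with anti-Ptk7 in SCM and 0 in Wnt5a, beside 1.23% and 0.884% of all genes. In SCM 1 member had an unadjusted p under 0.05, Slc39a14, and DESeq2 and voom with limma called 0. In Wnt5a 2 members had one, Slc39a5 and Slc39a14, of which DESeq2 called Slc39a5 and voom with limma 0. Over all genes 17.1% had an unadjusted p under 0.05 in SCM and 15% in Wnt5a. The difference of the antibody effects between media was called for 0 members and for 0% of all genes, and 0 members had an unadjusted p under 0.05 there; DESeq2 and voom with limma called 0 as well, and 3.88% of all genes had an unadjusted p under 0.05.

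**Figure D4:**
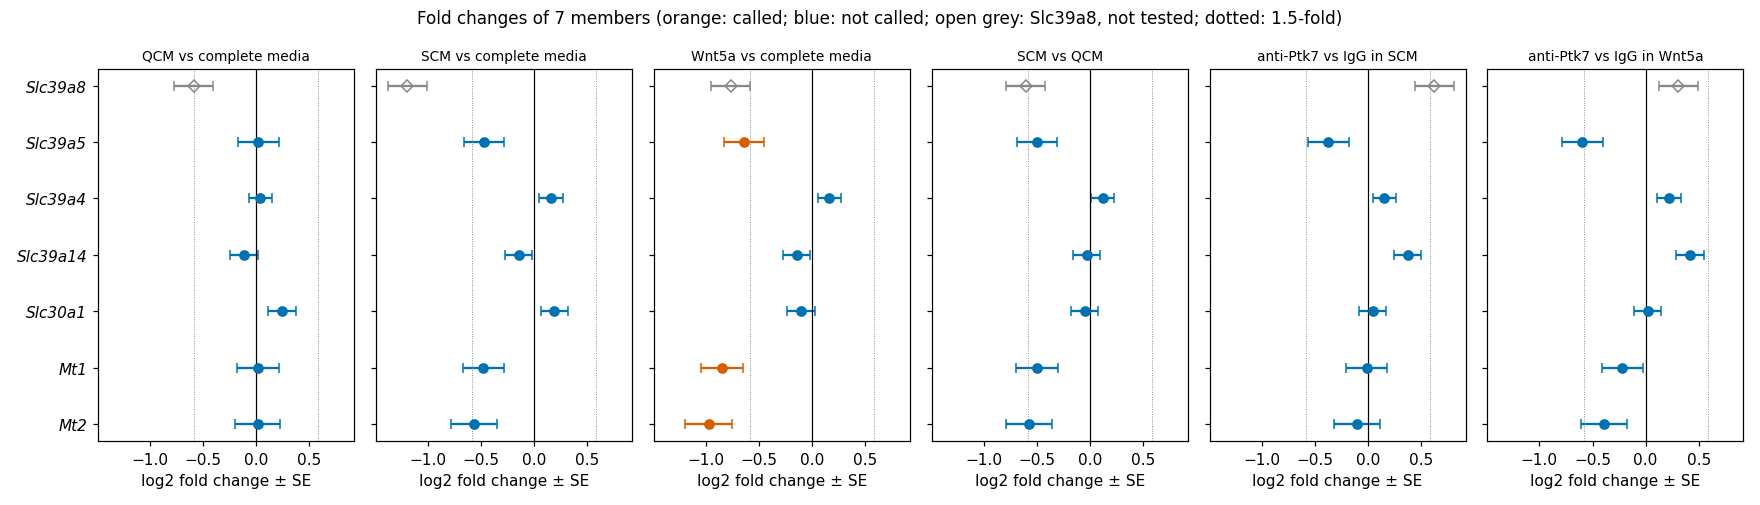
Log2 fold change ± standard error (edgeR) of 7 members in 6 comparisons, Slc30a10 left out, with dotted lines at a fold change of 1.5. Orange points are called, blue points are not, and the open grey points of Slc39a8 carry no test; the 3 calls are Slc39a5, Mt1 and Mt2 in Wnt5a.

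Slc39a4 (ENSMUSG00000063354, chromosome 15, 76612383 to 76617384, minus strand, protein coding) encodes ZIP4, the apical importer of dietary zinc. Its values spanned 84.6 to 163 CPM over the 36 libraries, with means between 99.7 ± 16.1 CPM in complete media and 130.0 ± 18.7 in Wnt5a + anti-Ptk7. It was not called in any comparison. Its log2 fold change was 0.16 in SCM (SE 0.110, adjusted p = 0.405, edgeR) and 0.16 in Wnt5a (SE 0.110, adjusted p = 0.318, edgeR). With anti-Ptk7 it was 0.16 in SCM (SE 0.110, adjusted p = 0.499, edgeR) and 0.22 in Wnt5a (SE 0.110, adjusted p = 0.340, edgeR), higher in 6 and in 5 of 6 numbers.

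Slc30a1 (ENSMUSG00000037434, chromosome 1, 191906767 to 191913247, plus strand, protein coding) encodes ZnT1, the zinc exporter of the plasma membrane and, like the metallothioneins, a known target of Mtf1. Its means lay between 34.2 ± 5.56 CPM in Wnt5a + IgG and 43.5 ± 6.24 CPM in QCM, and no neighbours in that order differed by more than their SD. Its log2 fold change in Wnt5a was −0.10 (SE 0.129, adjusted p = 0.632, edgeR), and in SCM it was 0.19 (SE 0.129, adjusted p = 0.386, edgeR). The antisense gene 1700034H15Rik shares 468 exon bases with Slc30a1 and was listed at 20.9% to 27% of its value, as means of the conditions.

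Slc30a10 (ENSMUSG00000026614, chromosome 1, 185454848 to 185468762, plus strand, protein coding) encodes ZnT10, a transporter known for exporting manganese. It had between 0 and 42 counts per library, with no count in 5 of 36, and its means lay between 0.524 ± 0.565 CPM in complete media and 1.32 ± 0.968 in SCM + IgG. Its standard errors of 0.872 to 1.25 on the log2 scale were larger than those of every other member, and it was not called in any comparison. It also shares 533 exon bases with Gm2061 on the other strand.

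The other genes of zinc transport were mostly without a call. Of 10 further ZIP genes 9 were tested, and 1, Slc39a10, was called in any of the 7 comparisons. Slc39a10 rose from 8.68 ± 2.14 CPM in complete media to 18.7 ± 5.67 in Wnt5a + IgG, a log2 fold change of 1.10 (SE 0.304, adjusted p = 0.00800, edgeR), beside 8.29% of all genes called higher. In SCM + IgG it was at 11.2 ± 2.68 CPM (log2 fold change 0.36, adjusted p = 0.509, edgeR). Slc39a12 had no count in 34 of 36 libraries. Of 8 further ZnT genes 7 were tested and 0 were called in any comparison, and Slc30a8 had no count in 36 libraries.

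Mtf1, which encodes the zinc sensor, was tested with Mt3 and Mt4, and 0 of the 3 were called in any comparison. Mtf1 averaged 37.5 ± 6.84 CPM in complete media, with 39.6 ± 4.77 for SCM and 41.7 ± 2.88 for Wnt5a, with a log2 fold change in Wnt5a of 0.16 (SE 0.107, adjusted p = 0.333, edgeR).

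The calls among genes of iron and copper handling were all higher, the direction of most calls over all genes. Of 15 listed 14 were tested, of which 2 rose in SCM and 4 in Wnt5a and 0 fell. Over all genes 4.96% and 8.29% were called higher and 1.12% and 1.88% lower. Heph, the ferroxidase that works with iron export, rose from 103 ± 13.4 CPM to 168 ± 12.9 in SCM (log2 fold change 0.71, adjusted p = 0.000111, edgeR) and to 192 ± 31 in Wnt5a (0.90, adjusted p = 1.57e-06, edgeR). Cybrd1, the duodenal ferric reductase, rose from 20.6 ± 9.98 CPM to 40.4 ± 10.5 in SCM (0.98, adjusted p = 0.0120, edgeR) and to 41.8 ± 9.28 in Wnt5a (1.03, adjusted p = 0.00430, edgeR). The copper transporters Slc31a2 and Atp7a rose in Wnt5a, by 0.68 (adjusted p = 0.0134, edgeR) and 0.62 (adjusted p = 0.0193, edgeR) on the log2 scale.

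Of 10 enterocyte markers edgeR called 4 higher and 2 lower for SCM, beside 4.96% and 1.12% of all genes. For Wnt5a it called 3 higher and 1 lower, beside 8.29% and 1.88%. In QCM it called 3 higher and 0 lower, beside 0.355% and 0.0194%. Their summed level was between 1850 and 2880 CPM in complete media, between 2300 and 3120 in SCM and between 1450 and 2780 in Wnt5a. Of 7 enteroendocrine markers 1 was called lower in SCM and in Wnt5a, Neurog3, the factor of their progenitors (log2 fold changes −0.83 and −1.33, adjusted p = 0.00543 and 1.38e-05, edgeR). In SCM 2 Paneth cell markers were called higher, Mmp7 and Ang4, and 1 stem cell marker lower, Smoc2. Of 7 goblet cell markers 0 were called in any comparison by edgeR, with at most 2 at an unadjusted p under 0.05, and their summed level was between 2060 and 2720 CPM in complete media, between 1810 and 2850 in SCM and between 1410 and 2850 in Wnt5a. None of the 10 enterocyte markers was at 0 in any library, and the part of these cell types in the levels of the zinc genes was not tested.

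The genes most alike in pattern were ranked by the Pearson correlation of log2 CPM over the 36 libraries, which share conditions and replicate numbers, so that the values describe these libraries and carry no p. For Slc39a8 they were Epb41l3 (r = 0.918), Gucy2c (0.891), Add3 (0.884), Lcp1 (0.876) and Cat (0.874). For Mt1 they were Mt2 (0.987), Gm45774 (0.975), Khk (0.945), Nlrp6 (0.930) and Cryl1 (0.930), and for Mt2 they were Gm45774 (0.991), Mt1 and Cdca3 (0.941). For Slc39a5 they were H2-Q10 (0.934), Coq8a (0.929) and Gm45774 (0.924), where H2-Q10 belongs to a family of near-identical genes. The highest values were lower for Slc39a14 (Ptprs, 0.820; Ppp1r13b, 0.798; Zfp783, 0.792), for Slc39a4 (Prss32, 0.769; Gm15947, 0.761; Cdhr5, 0.759), for Slc30a1 (G6pc, 0.740; Pycard, 0.734; Tstd1, 0.717) and for Slc30a10 (Creb3l4, 0.672; Smtnl2, 0.659; Pofut1, 0.648). Without the libraries numbered 1 the values for these pairs over the other 30 libraries were between 0.499 (Slc39a14 and Zfp783) and 0.983 (Mt2 and Gm45774).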

How the data were processed

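RNA of 36 organoid libraries was amplified by the authors with a kit for low RNA input that does not mark strand and sequenced. Per the submitters' processing notes reads were aligned with GSNAP to mm10, and per the methods the authors counted reads within coding sequences. The authors deposited whole-number read counts per Ensembl gene without normalization, and a table of the whole series with the same values was not used. Symbols, positions and lengths came from GENCODE (GRCm38), where 233 identifiers had no symbol, and promoter windows from RefSeq (GRCm38.p6).

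Software was edgeR 4.0.16, DESeq2 1.42.0 and limma 3.58.1 under R 4.3.3. The filter was filterByExpr, and values were scaled by TMM (factors 0.908 to 1.03) and tested over all 15497 genes by edgeR's quasi-likelihood test in a model of 6 condition means. Each of 90 library pairs of the same condition had a chi-square of at least 7.25 per gene, so none was counted as a repeat. Level per length used the union of coding sequence. Alternatives were DESeq2, the study's own voom and limma fit after quantile normalization, other scalings, filters and call rules, a replicate block, only the groups compared, and each library left out. Removal of the libraries numbered 1 was added after seeing the data.

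The 8 members and the gene lists were chosen with earlier results of these data known. The genes named are the members, the called genes of the zinc, iron and copper lists with up to 4 of each described with values, the markers of other cells, the 5 genes most alike for Slc39a8 and Mt1 and the 3 for each other member. Mtf1, Slc39a12, Slc30a8, and the antisense genes were named in addition, after their values were seen. The result of the immune cell marker list is not reported here.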

Additional observations from a re-analysis of the deposited data

Results flagged for a closer look

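A library was taken as standing far from the other 5 of its condition where its gap to the nearest, divided by the range of log2(CPM + 0.5), was over Dixon's critical value for groups of 6. Chance alone gives such a value in about 1 in 20 groups. Of 48 groups (8 members in 6 conditions) 10 had one, and in all 10 it was the library numbered 1 and the lowest. The ratio was 0.931 for Slc39a8 in complete media (117 CPM) and 0.784 for Slc39a14 in SCM + IgG (48.5 CPM). For Slc39a5 it was 0.787 in Wnt5a + IgG (40.5 CPM) and 0.879 in Wnt5a + anti-Ptk7 (32.3 CPM). For Mt1 it was 0.710 in complete media (4897 CPM), 0.646 in SCM + anti-Ptk7 (3185 CPM), 0.714 in Wnt5a + IgG (1563 CPM) and 0.731 in Wnt5a + anti-Ptk7 (1505 CPM). For Mt2 it was 0.700 in Wnt5a + IgG (364 CPM) and 0.716 in Wnt5a + anti-Ptk7 (267 CPM).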

How the results depend on the processing

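The count of called members, taken over the 7 other than Slc39a8, was 3 in Wnt5a against complete media and 0 in the other 6 comparisons. It became 0 in Wnt5a against complete media under glmTreat at a fold change of 1.5, 1 in SCM against complete media under voom with limma (Mt2), and 1 with anti-Ptk7 in Wnt5a under DESeq2 and with the libraries numbered 1 removed (Slc39a5 in both). That removal also took the count in Wnt5a against complete media from 3 to 2, without Slc39a5. The labels do not tie a replicate number to a mouse, and 34 of 90 pairs of libraries with the same number had a correlation over 0.1, so the numbers were not taken as pairing. The mean was 0.092 for the same number (0.0231 for number 4 to 0.241 for number 1) and −0.018 for different numbers. Of 36 libraries 16 (10 of them not number 1) correlated best with their own among 6 numbers, which is a hint of sharing from the data and not from the design. With the replicate block the counts over the 7 members were 3 and 0 as before. Over all genes the block raised the calls from 58 to 178 in QCM, 942 to 1133 in SCM, 1576 to 1706 in Wnt5a and 140 to 496 in SCM against QCM, and with anti-Ptk7 from 190 to 399 in SCM and 137 to 255 in Wnt5a, and from 0 to 3 for the difference between them. Pdgfrb with anti-Ptk7 in SCM was called under it (log2 fold change 2.01, adjusted p = 0.0498, edgeR). Leaving out each library in turn gave 2 to 3 in Wnt5a, 0 to 2 in SCM, 0 to 1 with anti-Ptk7 in Wnt5a and 0 to 0 in the other 4 comparisons. No member reversed its direction among called values under the alternatives run. Of 494 log2 fold changes of the 8 members under settings other than a library left out, 13 changed sign, all without a call and the largest −0.23 (Slc30a10 in QCM under voom with limma). The cause of these changes was not tested. Slc30a10 had the fewest counts, 0 to 42 per library, and the part of depth in its standard errors was not tested. It has no value under the filter of 10 counts in every library.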

Other observations

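The members' correlations within conditions depended on the libraries numbered 1. After each condition's mean was subtracted from log2 CPM, Slc39a5 and Mt1 had a Pearson correlation of 0.885 over 36 libraries and 0.355 over the 30 without number 1. For Slc39a5 and Mt2 these values were 0.859 and 0.203, and for Slc39a8 and Slc39a5 0.695 and 0.0596. Slc39a4, the apical importer, had −0.597 with Slc39a5, −0.613 with Mt1 and −0.549 with Slc39a8, which became −0.209, −0.184 and 0.071. Mt1 and Mt2 had 0.979 and 0.900. The libraries share replicate numbers, no test was made of these values, and those without number 1 were computed after seeing the data.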
